A study of Mus musculus with 4 samples.

Results

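The glycolysis and hypoxia response genes described here are 31 mouse genes, chosen by symbol and not by their measured values. They cover glucose uptake and lactate export, every step of glycolysis, the oxygen-sensing enzymes and a group of genes induced by low oxygen. In the deposited gene list of 32285 genes, 32 rows carry these symbols, because Aldoa has 2 gene identifiers. The second of those held 2 UMIs over all cells kept after filtering. A UMI, or unique molecular identifier, marks 1 captured RNA molecule. All 31 genes had UMIs in all 4 libraries. The cells were CD45+ leukocytes (CD45 is a surface protein of blood-derived cells other than red cells) sorted from left lung grafts of B6 mice, the common C57BL/6 inbred background, transplanted between mice of the same strain. The grafts were stored for 60 min at 4 °C and then for 45 min at 28 °C before implantation, and were collected 2 h after it. The treatment was Resolvin D1 (RvD1), a pro-resolving lipid derived from an omega-3 fatty acid, or vehicle. The dose of RvD1 was 200 ng for each mouse, injected intravenously in a volume of 200 µL with 1% ethanol directly before transplantation. How donor and recipient cells were told apart is not stated in the labels. No genotype other than the strain is given in the labels, and the animals' age is not stated in them. All 4 groups therefore share the transplantation, the cold and the warm storage, and none is a lung without ischaemia.

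Each treatment had 1 library of donor leukocytes and 1 of recipient leukocytes, each from 2 pooled lungs. Each of the 4 groups is 1 library, so the groups have no replicates and no p-value is given. Treatments and origins are compared between libraries, and cell classes within each library. The intervals are 95% intervals that cover counting error only. Values are listed with donor before recipient cells, and in each origin vehicle before RvD1: vehicle donor, then RvD1 donor, then vehicle recipient, then RvD1 recipient.

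Glycolysis turns glucose into pyruvate in the cytosol and yields ATP without oxygen. Several steps are carried out by isoenzymes, products of separate genes that catalyse the same reaction with different affinity, location or regulation, so a cell's choice of isoenzyme is part of its metabolic identity. When oxygen falls, the prolyl hydroxylases that mark HIF-1α for destruction slow down, HIF-1α accumulates, and it binds hypoxia response elements at glycolytic genes and at genes such as Vegfa. Neutrophils hold few mitochondria and are known to rely on glycolysis, and HIF-1α is known to prolong their survival in low oxygen.

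The libraries held 5024 to 7345 cells after filtering, with a median of 5386 to 7905 UMIs per cell. Before filtering they held 42199775 to 61294707 UMIs each. The RvD1 libraries were made with Cell Ranger 7.0.1 and the vehicle libraries with Cell Ranger 6.1.1, per the file headers, so the effects of RvD1 and of the software cannot be told apart. Whether intronic reads were counted is not stated in the labels or headers. Recipient and donor cells of 1 treatment were processed with the same version. Pairs of libraries shared 4 to 15 cell barcodes, 0.067% to 0.27% of a library. Of the clusters left unnamed, one of 392 cells was led by genes of non-leukocytes such as Sftpc and Scgb1a1. The classes used here had 100 or more cells in every library: 1400, 1886, 3340 and 3036 neutrophils, 577, 773, 169 and 281 classical monocytes, 527, 256, 195 and 332 nonclassical monocytes, 976, 834, 792 and 1810 T cells, 448, 262, 864 and 925 B cells, and 783, 423, 355 and 557 NK cells. For each class and library the UMIs were added up and given per 1000000 UMIs of that class (CPM). The kit tags the 3' end of each transcript, and CPM levels are compared between classes or libraries for 1 gene, not between genes.

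The promoters of the genes on which the isoenzyme results turn are printed here because HIF-1 binds the core letters ACGTG or GCGTG. The search covered both strands from 250 bases before to 50 after each RefSeq start on GRCm38.p6, and overlapping matches were counted separately. Of the 31 symbols, 28 had a promoter, with 42 starts in all, and Slc2a3, Eno1b and Ndrg1 had none in the table. At least 1 match was present in 34 of the 42 member promoters (81.0%) and at 1 or more starts of 26 of the 28 genes (92.9%). Over all 32851 promoters of the same length the share was 43.8%, and over 27025 genes, at 1 or more starts, it was 46.7%. Member promoters were richer in G and C (median 62.8% against 52.7%), and among the 8072 promoters in the middle of the members' range of G and C content the share was 62.2%. Ldha, the lactate dehydrogenase subunit common in muscle and activated cells, had the most matches at 1 start, 7, followed by 5 for Bnip3 and 5 at the second start of Hk1. Tpi1 and Gpi1 had 0 at their only start, and the first start of Vegfa had 0 and its second 2. A match describes the letters in this window and is not a measured binding site. In the sequences the capitals mark the matches.
Hk1, chr10:62340372-62340671, minus strand: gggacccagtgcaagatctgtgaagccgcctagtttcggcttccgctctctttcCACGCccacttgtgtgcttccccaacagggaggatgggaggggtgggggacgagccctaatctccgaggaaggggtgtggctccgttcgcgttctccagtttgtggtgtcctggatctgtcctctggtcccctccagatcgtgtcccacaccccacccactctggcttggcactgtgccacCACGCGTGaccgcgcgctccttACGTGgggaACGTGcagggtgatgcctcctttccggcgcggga
Hk2, chr6:82774405-82774704, minus strand: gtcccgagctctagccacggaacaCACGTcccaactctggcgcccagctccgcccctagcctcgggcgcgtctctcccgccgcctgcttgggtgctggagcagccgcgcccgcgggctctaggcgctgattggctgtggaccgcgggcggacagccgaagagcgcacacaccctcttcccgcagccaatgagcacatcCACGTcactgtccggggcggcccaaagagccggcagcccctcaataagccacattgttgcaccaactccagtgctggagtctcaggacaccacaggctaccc
Hk3, chr13:55021336-55021635, minus strand: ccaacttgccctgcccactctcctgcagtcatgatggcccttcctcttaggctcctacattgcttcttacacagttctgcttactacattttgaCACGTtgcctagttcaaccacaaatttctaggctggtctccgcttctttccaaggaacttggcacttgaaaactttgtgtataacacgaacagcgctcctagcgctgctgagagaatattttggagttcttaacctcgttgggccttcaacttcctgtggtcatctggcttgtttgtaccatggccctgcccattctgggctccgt
Egln1, chr8:124949205-124949504, minus strand: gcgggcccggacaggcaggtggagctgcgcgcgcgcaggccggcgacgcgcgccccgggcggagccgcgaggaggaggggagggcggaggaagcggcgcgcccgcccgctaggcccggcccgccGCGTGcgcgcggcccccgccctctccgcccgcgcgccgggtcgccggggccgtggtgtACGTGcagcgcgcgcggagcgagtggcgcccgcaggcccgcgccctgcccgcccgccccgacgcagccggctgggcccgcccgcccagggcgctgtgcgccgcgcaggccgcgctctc
Egln3, chr12:54203825-54204124, minus strand: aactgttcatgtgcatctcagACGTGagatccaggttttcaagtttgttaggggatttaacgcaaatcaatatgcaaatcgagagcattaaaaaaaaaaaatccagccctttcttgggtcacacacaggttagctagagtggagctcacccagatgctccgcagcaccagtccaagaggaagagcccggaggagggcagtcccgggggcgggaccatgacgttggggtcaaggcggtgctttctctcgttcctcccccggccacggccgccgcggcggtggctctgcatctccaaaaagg

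All 3 hexokinase genes and both prolyl hydroxylase genes thus carried the core letters. The second start of Hk1 carried 5 matches and its first start 0, Hk2 and Egln1 carried 2 each, and Hk3 and Egln3 carried 1 each.

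The first comparison asked which leukocytes of the graft carried which steps of the pathway. In all, 11 of the 31 genes had their highest median over the 4 libraries in neutrophils: the glucose transporters Slc2a1 and Slc2a3, the lactate exporter Slc16a3, Hk3, both Pfkfb genes, Hif1a, Egln3, Bnip3, Hilpda and Ndrg1. Classical monocytes were highest for 10: Hk2, Gpi1, Pfkp, Aldoa, Gapdh, Pgk1, Pgam1, Eno1, Eno1b and Pkm. T cells were highest for Ldha and Pdk1, NK cells for Hk1, Pfkl, Pfkm, Egln1, Vegfa and Higd1a, and nonclassical monocytes for Tpi1 and P4ha1. The range over libraries overlapped that of the next class for many of them. These were Pfkfb4, Bnip3 and Ndrg1 in neutrophils, all classical monocyte genes but Pgk1 and Eno1, all NK genes but Vegfa and Higd1a, and both nonclassical genes. The share of all genes highest in each class is not given, so this is an order of medians only.

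**Figure D1:**
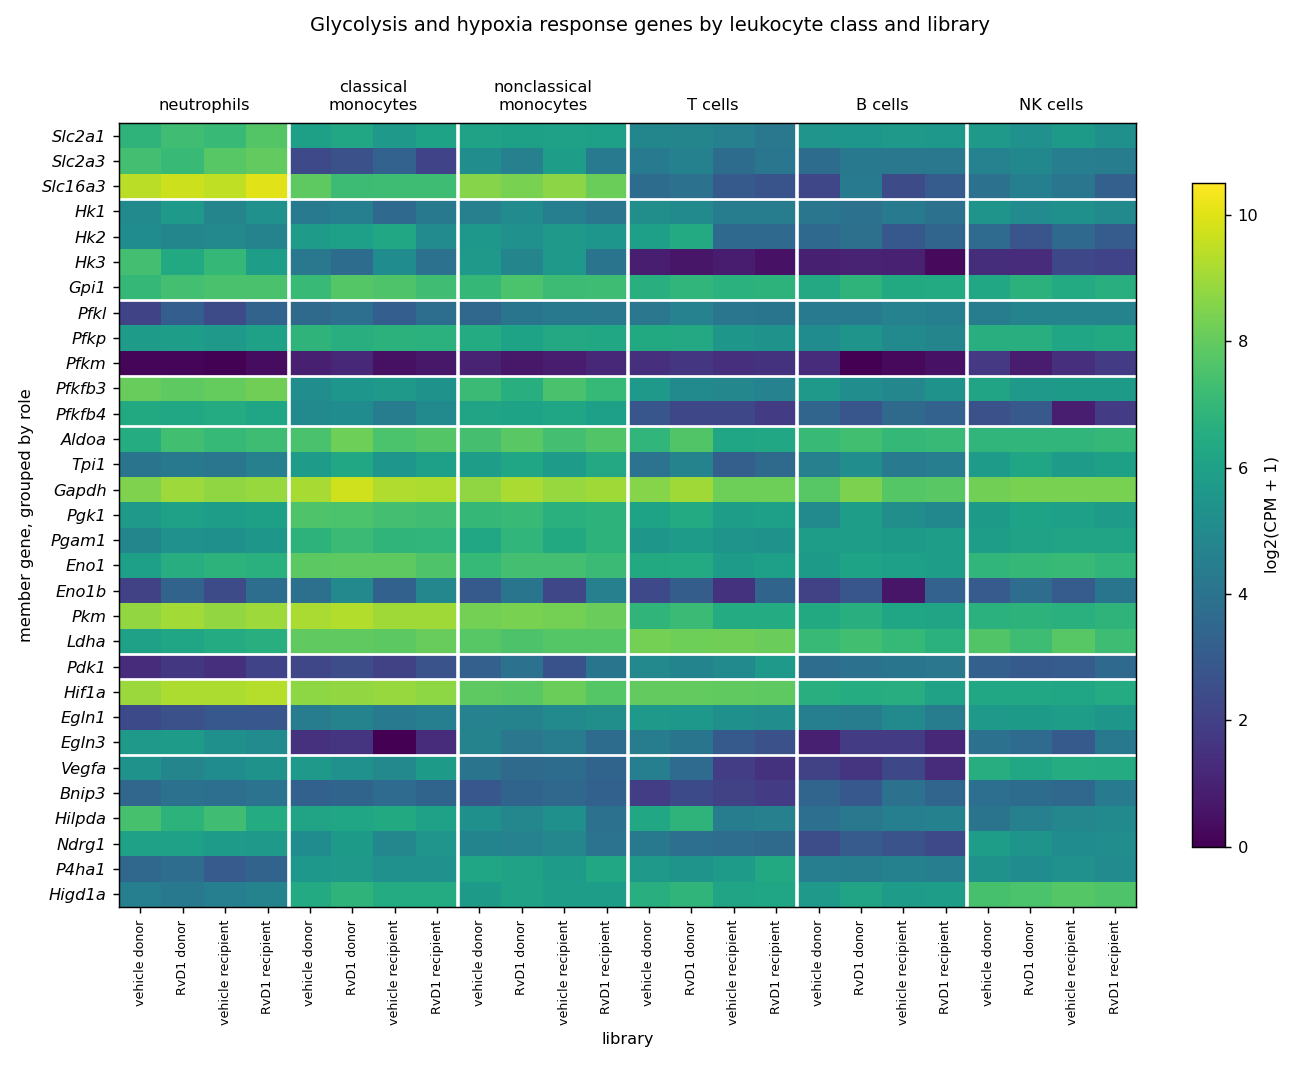
Levels of the 31 genes in 6 leukocyte classes, as log2(CPM + 1) by colour, with 1 column per library and rows grouped by role from transport at the top to hypoxia targets at the bottom. Slc16a3 was brightest in the neutrophil columns, and Hk3 was dark in all T, B and NK cell columns.

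Transcripts of the genes for glucose uptake and lactate export set neutrophils apart from lymphocytes, though uptake and export themselves were not measured. Slc16a3 encodes MCT4, the exporter that cells use to dispose of lactate. Its level was 679, 836, 721 and 1046 CPM in neutrophils, 384, 331, 414 and 285 in nonclassical and 236, 145, 148 and 148 in classical monocytes. Its level in lymphocytes was 12.1, 14.1, 6.79 and 5.64 CPM (T cells), 3.67, 18.5, 4.4 and 7.23 (B cells) and 14.2, 22, 16.6 and 8.44 (NK cells). The ranges of neutrophils, nonclassical and classical monocytes did not overlap, and the 3 lymphocyte classes overlapped each other far below them. Slc2a1 encodes GLUT1, the widespread basal glucose transporter, and stood at 111, 153, 136 and 203 CPM in neutrophils, 61.3, 74.8, 50.7 and 66.6 in classical and 65.7, 62, 63.5 and 60.3 in nonclassical monocytes. Its lymphocyte levels were 27.4, 26.7, 22.8 and 17.3 CPM (T cells), 43.4, 44.4, 50.9 and 47.1 (B cells) and 49.7, 38.3, 52 and 38.1 (NK cells). Slc2a3 encodes GLUT3, a transporter of higher affinity. It reached 161, 135, 216 and 249 CPM in neutrophils and 4.01, 5.05, 8.92 and 3.36 in classical monocytes, the lowest class. Between them lay nonclassical monocytes with 34.6, 22.8, 57.5 and 18.3 CPM, T cells with 19.8, 23.5, 12.2 and 16.5, NK cells with 23.8, 29, 21.8 and 20.9 and B cells with 12.2, 18, 17.4 and 17.3. Both glucose transporter genes were higher in neutrophils than in the other 5 classes in all 4 libraries.

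Low levels in lymphocytes can be set beside the amount of stray neutrophil RNA. The neutrophil transcripts S100a8 and S100a9 stood in lymphocytes at 0.11% to 1.9% of their neutrophil level. The same percentage of neutrophil Slc16a3 comes to 0.78, 15.9, 5.24 and 2.39 CPM in B cells, beside the 3.67, 18.5, 4.4 and 7.23 CPM measured there, so that it was within 1.5-fold of the measured level in the RvD1 donor and vehicle recipient libraries and not in the others. Its part in the lymphocyte levels was not tested further. In single cells thinned to 1000 UMIs each, 43.6, 47.9, 47 and 56.5% of neutrophils and 1.13, 1.8, 1.01 and 0.72% of T cells had a UMI of Slc16a3. Unthinned, the shares were 82.6, 84.3, 86 and 89.7% and 7.79, 8.87, 4.17 and 3.65%. The share in neutrophils was thus far above that in T cells at equal depth.

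The hexokinases trap glucose in the cell by phosphorylation. Hk1 is the widespread form, Hk2 the inducible form, and Hk3 a form known from myeloid cells. Hk3 in neutrophils was 164 (155 to 173), 82.5 (76.9 to 88.4), 125 (120.4 to 130.4) and 57 (53.3 to 60.9) CPM, against 49.7, 26.5, 49.4 and 15.4 in nonclassical and 17.2, 12.2, 33.7 and 14.4 in classical monocytes. It was 1.61, 1.55, 3.84 and 3.3 CPM among NK, 0.92, 0.998, 0.96 and 0.22 among B and 0.84, 0.57, 0.81 and 0.43 among T cells. Neutrophils lay above all lymphocytes by a log2 ratio of 4.11 to 8.02 over the 12 pairings of class and library. The lymphocyte levels rest on few UMIs, so the size of these ratios is uncertain. The part of stray neutrophil RNA in them was not tested. After thinning, 14.5, 7.98, 11 and 5.18% of neutrophils and 0.21, 0, 0.13 and 0% of T cells had an Hk3 UMI. For the T cell shares of 0 the exact 95% interval reached 0.44% in the RvD1 donor and 0.2% in the RvD1 recipient library. Hk2 was 54, 59.5, 77 and 32.7 CPM in classical and 48, 38.3, 48.3 and 45.2 in nonclassical monocytes, and 33.5, 27, 29.8 and 25.3 in neutrophils. B cells were at 11, 13.5, 6.32 and 9.64 CPM, NK cells at 11.7, 5.8, 11.1 and 7.34. T cells split by origin, with 60.6, 85.6, 11.1 and 10.9 CPM. Hk1 varied least of the 3, from 42.3, 32.9, 38 and 30.4 CPM in NK cells to 16.2, 14, 19.5 and 14.2 in B cells, and neighbouring classes overlapped. Its values were 30.5, 49, 26.6 and 38.3 CPM in neutrophils, 35.9, 30.8, 20.6 and 20.1 in T cells, 22.8, 32.8, 22.3 and 16.4 in nonclassical and 19.6, 22.2, 10.9 and 17.7 in classical monocytes. Gpi1, the isomerase that follows, ranged from 79.5 to 114 CPM in B cells to 136 to 209 in classical monocytes.

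Phosphofructokinase commits sugar to glycolysis, and the Pfkfb enzymes make and break fructose-2,6-bisphosphate, its strongest activator. Pfkp, the platelet form, was 113, 94.9, 105 and 104 CPM in classical monocytes, 98.8, 96.3, 72.5 and 82.9 in NK cells, 86.8, 67.8, 79.4 and 76.4 in nonclassical monocytes, 82, 79.7, 45.8 and 40.8 in T cells, 53.8, 57.4, 50.6 and 64.2 in neutrophils and 33.3, 41.9, 31.4 and 26.1 in B cells. Pfkl, the liver form, was lowest in neutrophils, with 3.45, 7.69, 4.48 and 9.08 CPM, and highest in NK cells, with 20.4, 25.1, 24.7 and 24.9. It was 11.3, 13.2, 7.7 and 12.8 CPM in classical and 10.8, 16.1, 17.8 and 17.3 in nonclassical monocytes, 19.6, 18.5, 24.1 and 22.3 among B and 17.2, 24.1, 16.3 and 15.9 among T cells. The muscle form Pfkm was near the detection limit, with 0.13, 0.1, 0.052 and 0.26 CPM in neutrophils, 0.92, 1.22, 0.41 and 0.61 in classical and 1.07, 0.61, 0.74 and 1.28 in nonclassical monocytes, 2.33, 0.77, 1.71 and 2.57 among NK, 1.53, 0, 0.19 and 0.44 among B and 1.67, 2.12, 1.77 and 1.93 among T cells. Pfkfb3 encodes the isoform with the most one-sided kinase activity and is induced by hypoxia. It was 268, 237, 256 and 299 CPM in neutrophils and 141, 94.9, 179 and 129.9 in nonclassical monocytes, against 34.9, 45, 49.1 and 40.05 in classical monocytes, 70.1, 49.9, 52 and 51.3 among NK, 49.6, 33.9, 28.2 and 40.1 among B and 48.3, 31, 28.4 and 24.1 among T cells. Pfkfb4 was 83, 76.3, 87.7 and 71 CPM in neutrophils, 69.2, 67.2, 73.9 and 60.6 in nonclassical and 31.9, 33.6, 21.1 and 30.6 in classical monocytes, and lower in lymphocytes, with 5.96, 3.82, 3.8 and 2.57 CPM (T cells), 9.79, 5.99, 11.3 and 8.76 (B cells) and 5.02, 6.57, 0.85 and 2.57 (NK cells). Neutrophils and nonclassical monocytes overlapped for Pfkfb4 and not for Pfkfb3. Without the nonclassical cluster that carries the neutrophil transcripts S100a8 and S100a9, Pfkfb4 was 66.8, 60.1, 63.2 and 56.6 CPM there. Each of these values was below the lowest of neutrophils.

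The later steps of the pathway, from aldolase to lactate dehydrogenase, were higher in classical monocytes than in neutrophils for most genes. A higher level there was common, as 39.6% of all genes were at least 2-fold higher in classical monocytes in all 4 libraries. Pgk1, the first ATP-forming enzyme of the pathway, was 196, 186, 161 and 154 CPM in classical monocytes and 48.4, 64.3, 58.4 and 62.4 in neutrophils. Pgam1 was 110.0, 144, 116 and 120.1 CPM against 27.3, 38.2, 37.3 and 46.3, in the same order. Eno1, an enolase, was 228, 239, 239.6 and 196 CPM in classical and 129, 165, 164 and 143 in nonclassical monocytes, 60.4, 91.1, 108 and 101 in neutrophils, 81.2, 85.7, 55.1 and 60.3 in T, 51.7, 66.4, 59.6 and 57.6 in B and 118, 128, 139 and 121 in NK cells. Its near copy Eno1b was 13.7, 29.5, 8.52 and 27.8 CPM in classical and 6.88, 16.1, 3.71 and 23.1 in nonclassical monocytes, 3.19, 9.13, 4.32 and 12.8 in neutrophils, 3.97, 7.5, 1.9 and 9.35 in T, 3.06, 5.99, 0.57 and 8.76 in B and 6.99, 12.4, 7.25 and 16.1 in NK cells. Pkm, pyruvate kinase, departed from these, with 573, 630.4, 517 and 508 CPM in classical monocytes and 439, 525, 448 and 504 in neutrophils, ranges that overlapped, and 69.9 to 94.9 in B cells. Gapdh and Aldoa ranged from 209.7 to 342 CPM (B cells) to 563 to 848 CPM (classical monocytes) and from 70.8 to 199 (T cells) to 179 to 289.6 (classical monocytes). Tpi1 was 53.4, 76.1, 45 and 60.5 CPM in classical and 53.8 to 78.9 in nonclassical monocytes and 15.3, 17.7, 16.3 and 22.7 in neutrophils. Ldha reduces pyruvate to lactate, and at 312, 289, 299 and 273 CPM it was highest in T cells and lowest in neutrophils, with 63.6, 74.3, 87.9 and 98.8. Neutrophils thus had the highest level of the lactate exporter gene and the lowest of this lactate dehydrogenase gene. Several of these genes have near-identical copies, as Eno1 has in Eno1b, so the split of reads between copies is uncertain.

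Oxygen-sensing genes divided the classes too. Hif1a, which encodes the oxygen-regulated subunit, was 481, 587, 584 and 643 CPM in neutrophils, 415, 448, 476 and 424 in classical monocytes, 249.9, 249, 247 and 234 in T cells and 239, 221, 283 and 214 in nonclassical monocytes, and under 100 CPM in each library of B and NK cells. Egln1 encodes PHD2, the main HIF hydroxylase, and Egln3 encodes PHD3, itself a HIF target. Egln1 was 4.09, 5.03, 6.5 and 6.25 CPM in neutrophils, the lowest class, and 50.7, 51.8, 57.6 and 46.6 in NK cells, the highest by median. Its other values were 50.8, 47.4, 37.5 and 34.2 CPM in T cells, 24.1, 24.6, 31.6 and 35.9 in nonclassical monocytes, 22.3, 21, 30.6 and 20.4 in B cells and 21, 24.8, 19.9 and 22 in classical monocytes. Egln3 was 49.8, 55, 37.3 and 32.5 CPM in neutrophils and 1.83, 2.12, 0 and 1.53 in classical monocytes. For ratios the 0 UMIs of the vehicle recipient library were set to 3 UMIs, which there is 1.22 CPM. Nonclassical monocytes had 24.9, 17, 21.2 and 12.2 CPM, T cells 20.5, 15.7, 6.93 and 4.996, NK 14, 11.6, 6.83 and 18 and B cells 0.92, 2.5, 2.68 and 1.31. Pdk1, a kinase that inhibits pyruvate dehydrogenase, was 29.5, 25.9, 31.8 and 48.8 CPM in T cells and 1.53, 2.26, 1.67 and 3.36 in neutrophils.

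The hypoxia targets had no single pattern. Hilpda, which blocks the breakdown of stored fat, was 171, 110.5, 153 and 87.8 CPM in neutrophils and 68.5, 71.6, 81.9 and 63.3 in classical monocytes. Vegfa, the growth factor for blood vessels, was 91.6, 76.2, 90.4 and 86.2 CPM in NK cells, 48.5, 39, 29.6 and 51.7 in classical monocytes and 40.9, 26.2, 33 and 41.5 in neutrophils. Higd1a, a small mitochondrial protein, was 173, 185, 213 and 194 CPM in NK cells, 83.5, 113, 86.4 and 86.5 in classical monocytes and 22.1, 18.1, 22 and 24.9 in neutrophils. P4ha1, a collagen prolyl hydroxylase, was 10.3, 12.4, 7.13 and 9.28 CPM in neutrophils and 47.7, 50.1, 38.9 and 38.5 in classical monocytes. Ndrg1, a stress-response gene, was 50.2 to 63.7 CPM in neutrophils and 33.7 to 56.8 in NK cells, which overlapped. Bnip3, a mitophagy receptor, was between 2.5 and 19.4 CPM over the 6 classes.

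Counted across the set, neutrophils were at least 2-fold above T, B and NK cells in all 4 libraries for 7 of the 30 genes with enough UMIs: Slc2a1, Slc2a3, Hk3, Pfkfb3, Pfkfb4, Pkm and Slc16a3. Over all genes 11.7% passed the same rule. They were at least 2-fold below for 3 (Pdk1, Egln1 and Higd1a), against 36.7% of all genes. Classical monocytes were above all lymphocytes for 4 of 29 (Hk3, Pgk1, Pkm and Slc16a3), against 9.07%, and below for 0, against 8.11%. The classes come from clusters of these same cells, so these counts describe and do not test.

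Set against neutrophils directly, classical monocytes were at least 2-fold higher in all 4 libraries for 7 of 30 genes, Tpi1, Pgk1, Pgam1, Ldha, Egln1, P4ha1 and Higd1a, against 39.6% of all genes. They were lower for 6, Slc2a3, Hk3, Pfkfb3, Pfkfb4, Slc16a3 and Egln3, against 12.6%. The log2 ratio of classical monocytes over neutrophils was -6.21 to -4.60 for Slc2a3 and -2.82 to -1.53 for Slc16a3. At the other end it was 1.39 to 1.92 for Ldha and 1.61 to 2.36 for Egln1. By role, the 6 lower genes were 2 transport genes, 1 hexokinase, both Pfkfb genes and the oxygen sensor Egln3. Of the 7 higher ones, 4 (Tpi1, Pgk1, Pgam1 and Ldha) belong to the later steps. The later-step genes Aldoa, Gapdh, Eno1, Eno1b and Pkm did not pass, while 39.6% of all genes did. Whether the later steps exceed that share was not tested. Other genes of the first roles did not pass, with -1.61 to -0.86 for Slc2a1 and 0.37 to 1.37 for Hk2.

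**Figure D2:**
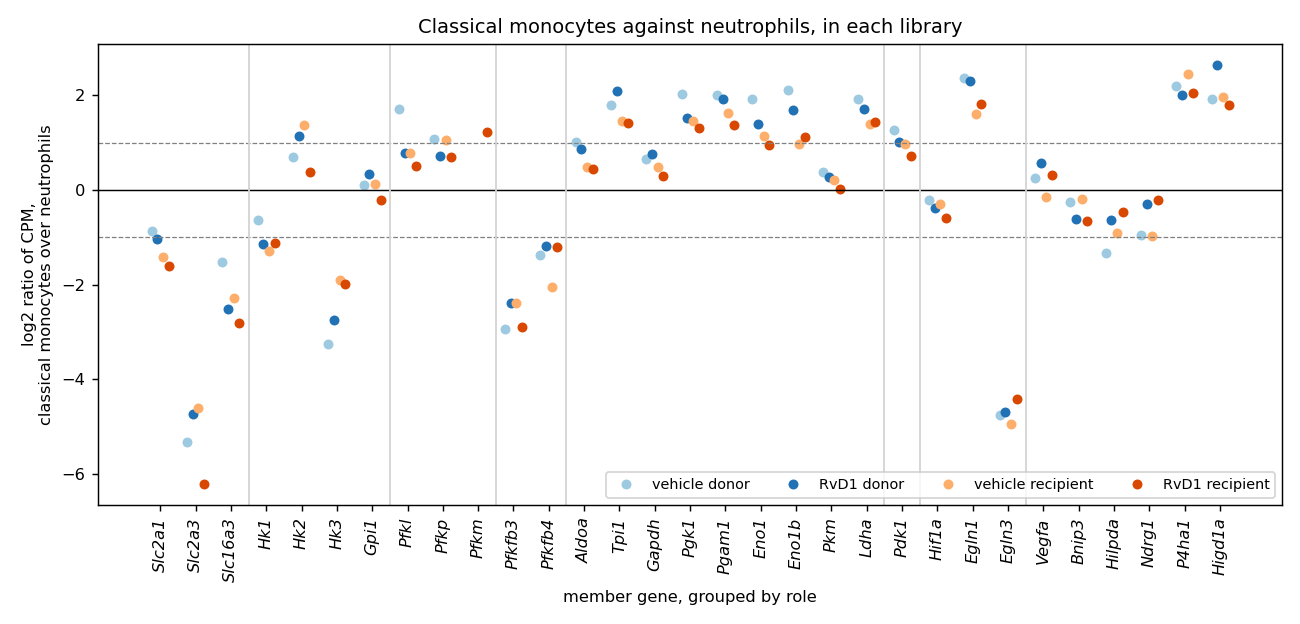
Log2 ratio of CPM in classical monocytes over neutrophils for each gene, with 1 point per library and dashed lines at 2-fold. Points for Slc2a3 and Egln3 lay below -4 in all 4 libraries, and those for Pgk1, Pgam1 and Ldha above 1. For Egln3 in the vehicle recipient library the monocyte value of 0 UMIs is set to 3 UMIs, and libraries with 3 or fewer neutrophil UMIs are not drawn (Pfkm).

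Classical and nonclassical monocytes differed at least 2-fold in all 4 libraries for 4 of 30 genes. Vegfa was higher in classical cells, against 3.39% of all genes, and Slc2a3, Pfkfb3 and Egln3 were lower, against 7.1%. One of the 2 nonclassical clusters, number 16, carried S100a8 and S100a9 at 22760 CPM in sum, against 472 in the other, and held 43.6, 29.7, 49.7 and 15.4% of the nonclassical monocytes. Without it, nonclassical Slc2a3 was 5.27, 5.42, 5.74 and 5.66 CPM, Egln3 12.5, 5.42, 5.74 and 11.3 and Pfkfb3 105, 54.7, 129.8 and 112. Hk3 was then 12.2, 10.8, 13.8 and 12.1 CPM and Slc16a3 334, 267, 342 and 240.3. Without that cluster Slc2a3 lay within the range of classical monocytes. Hk3 lay below it or in its lower part, while Slc16a3 and Pfkfb3 stayed above it.

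Some genes moved together over the 24 sums of class and library, on the log2 CPM scale. Pearson's r was 0.96 for Hk3 with Slc16a3, 0.92 for Pkm with Slc16a3, 0.89 for Gapdh with Pgk1 and 0.89 for Egln1 with Higd1a. The lowest was -0.85, for Slc2a1 with Pdk1. The points share libraries and depth, and these values only describe them.

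The second comparison took each isoenzyme as a share of its family's UMIs, so that the choice of isoenzyme is seen apart from the total. The 3' ends of different genes may be captured unequally, so an isoenzyme is said to lead by its UMIs alone. The leading hexokinase differed between classes. In neutrophils Hk3 made up 71.9, 52, 69 and 47.3% of hexokinase UMIs, in classical monocytes Hk2 made up 59.5, 63.3, 63.3 and 50.5%, and in NK cells Hk1 made up 76.1, 81.7, 71.8 and 74.1%. B cells were led by Hk1 too, at 57.6, 49.1, 72.9 and 59.1%. In T cells Hk2 held 62.3, 73.2, 34.2 and 34.7%, leading in both donor libraries and second to Hk1 in both recipient libraries. This is a share over all T cells pooled. The gamma-delta T cell cluster 17, with more Hk2 than clusters 7, 9, 11 and 14, held 16.7, 26.4, 1.26 and 2.93% of T cells. Hexokinase shares without it are not given, so the lead may not hold for donor T cells of other kinds. Nonclassical monocytes were split, with Hk3 at 41.2, 27.1, 41.2 and 20% and Hk2 at 39.9, 39.3, 40.2 and 58.8%. Without the S100a8-carrying cluster 16, Hk2 led there in all 4 libraries, with 66.3, 53, 63.4 and 60.2%, and Hk3 held 15.4, 14.8, 16.9 and 16.6%. The neutrophil shares of Hk3 were above those of the other 5 classes in the same library.

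**Figure D3:**
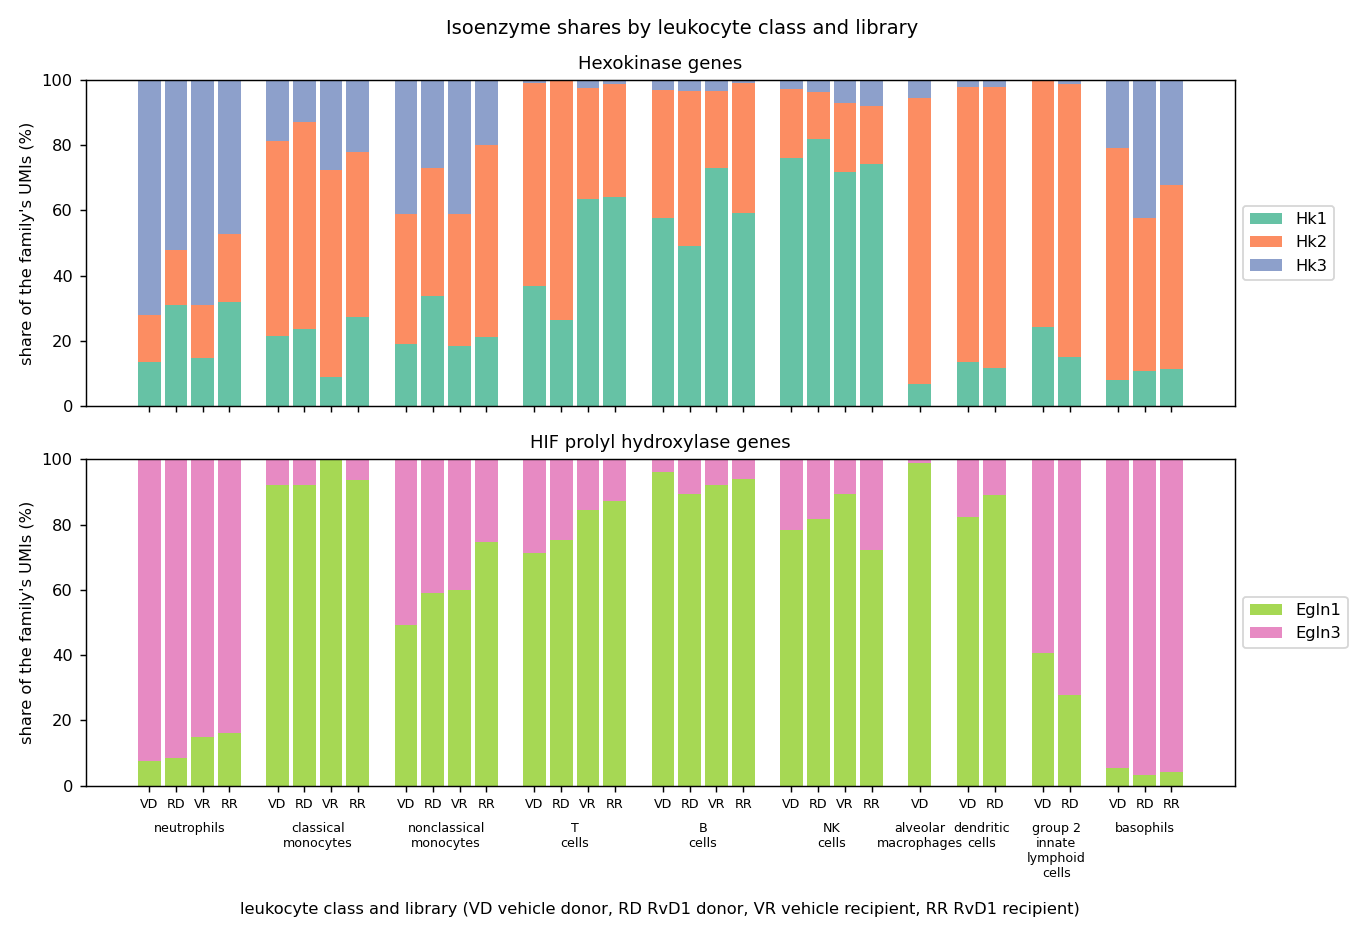
Stacked shares of hexokinase UMIs (top, %) and of Egln1 and Egln3 UMIs (bottom, %), with 1 bar per class and library that held at least 50 cells. Hk3 made up 47.3% or more of the hexokinase UMIs in all 4 neutrophil bars, and Egln3 83.9% or more of the hydroxylase UMIs there.

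The hydroxylase pair divided the classes as well. Egln3 held 92.4, 91.6, 85.2 and 83.9% of the Egln1 and Egln3 UMIs in neutrophils, and 8.04, 7.85, 0 and 6.49% in classical monocytes, where the exact 95% interval for the share of 0 reached 7.25%. It held 50.8, 40.9, 40.1 and 25.3% in nonclassical monocytes, 28.7, 24.9, 15.6 and 12.8% in T cells, 21.6, 18.3, 10.6 and 27.8% in NK cells and 3.95, 10.6, 8.05 and 6.06% in B cells. Without cluster 16 the nonclassical share was 29.8, 17.5, 13.5 and 22.8%. The neutrophil share in every library was above the highest share of the other 5 classes. Among the glucose transporters, Slc2a3 held 59.2, 46.8, 61.5 and 55.1% in neutrophils and 6.14, 6.32, 15 and 4.8% in classical monocytes. Pfkp led the phosphofructokinases in each of the 6 classes, from 53.4 to 69.4% in B cells to 86.8 to 92.8% in classical monocytes, with 87.3 to 93.8% in neutrophils. Pfkm held at most 3.28% of that family. Pfkfb4 held 47.8, 42.8, 30.1 and 43.3% of the Pfkfb UMIs in classical monocytes and 23.7, 24.4, 25.5 and 19.2% in neutrophils. Eno1b held 5.02, 9.11, 3.84 and 11.3% of enolase UMIs in neutrophils, and its share was higher in the RvD1 than in the vehicle library in all 6 classes and both origins.

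Smaller populations had their own choices, in the libraries with at least 50 of their cells. Alveolar macrophages, present in number only in the vehicle donor library (216 cells), had Hk2 at 153 CPM, 87.8% of hexokinase UMIs, and Slc16a3 at 18.1 CPM. Dendritic cells of the vehicle and RvD1 donor libraries (142 and 71 cells) had Hk2 at 141 and 158 CPM, 84.2 and 86.3% of hexokinase UMIs, and Pfkp at 291 and 258 CPM. Group 2 innate lymphoid cells, tissue cells that make type 2 cytokines, numbered 73 and 87 in these 2 libraries and had Ldha at 911 and 1039 CPM and Hilpda at 423 and 899. Basophils (69, 86 and 67 cells in the vehicle donor, RvD1 donor and RvD1 recipient libraries) had Hilpda at 833, 725 and 673 CPM, Slc16a3 at 292, 277 and 259 and Hk3 at 42.4, 88.3 and 64. Egln3 held 94.7, 96.8 and 95.8% of the hydroxylase UMIs in basophils, and 59.4 and 72.3% in the innate lymphoid cells. Hilpda was thus higher in basophils and innate lymphoid cells than in neutrophils of the same libraries, and the share of Egln3 in basophils was at or above that of neutrophils.

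The third comparison set RvD1 against vehicle within donor and within recipient cells. In neutrophils Hk3 and Hilpda were lower in the RvD1 library of both origins, and Eno1b and Pfkl were higher. Hk3 stood at 164, 82.5, 125 and 57 CPM, so that both RvD1 libraries lay below both vehicle libraries. The log2 ratio of RvD1 over vehicle was -0.99 (-1.12 to -0.87) in donor and -1.14 (-1.25 to -1.02) in recipient neutrophils, with the 95% counting interval in parentheses. Hilpda stood at 171, 110.5, 153 and 87.8 CPM, again with both RvD1 libraries below both vehicle libraries, with log2 ratios of -0.63 (-0.75 to -0.52) and -0.80 (-0.90 to -0.71). Pfkl stood at 3.45, 7.69, 4.48 and 9.08 CPM, with log2 ratios of 1.16 (0.51 to 1.85) and 1.02 (0.62 to 1.43), and Eno1b at 3.19, 9.13, 4.32 and 12.8 CPM, with 1.51 (0.86 to 2.22) and 1.57 (1.19 to 1.96). Counting genes at least 1.5-fold apart in the same direction in both origins gives 2 of 28 higher, against 5.26% of all genes, and 2 of 28 lower, against 9.62%. With 28 genes, counts of this size are near the share over all genes. The median log2 ratio of the 28 was 0.26 in donor and 0.17 in recipient cells, against 0.04 and 0.11 over all genes.

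**Figure D4:**
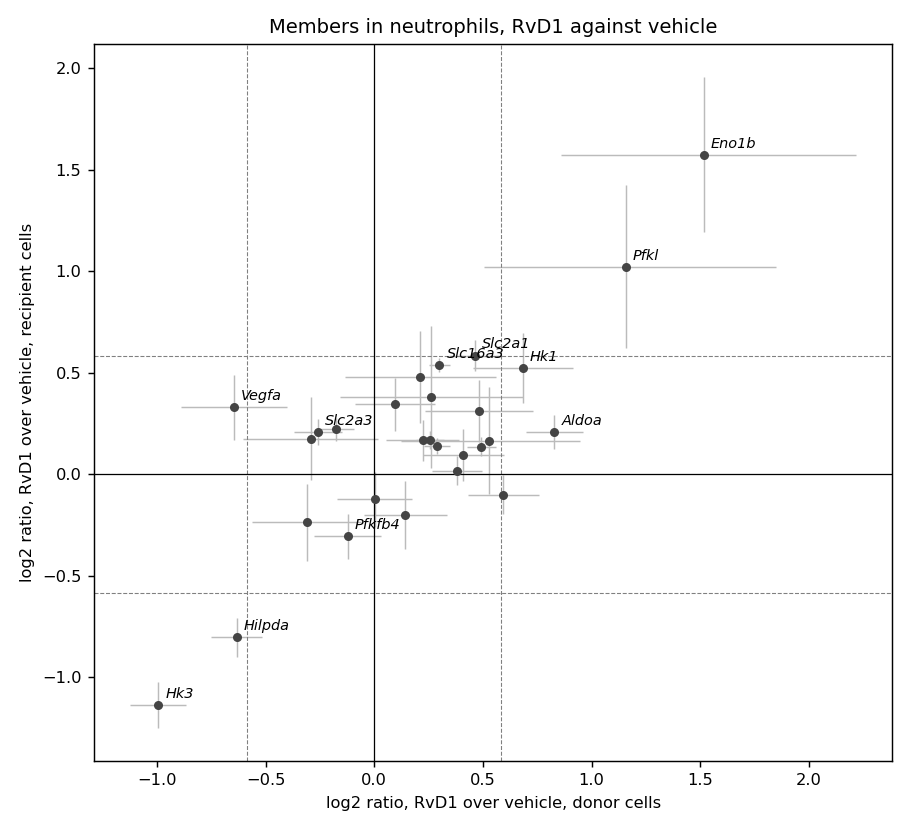
Log2 ratio of RvD1 over vehicle in neutrophils, donor cells on the x axis and recipient cells on the y axis, with 1 point per measured gene, lines for the 95% counting intervals and dashed lines at 1.5-fold. Hk3 and Hilpda lay in the lower left corner, Eno1b and Pfkl in the upper right, and Vegfa had opposite signs in the 2 origins.

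The hexokinases did not move as 1 group. Beside the lower Hk3, Hk1 had log2 ratios of 0.68 and 0.52 and Hk2 of -0.31 and -0.24, in donor and recipient cells. Of the 3 transport genes, 2 had positive ratios short of 1.5-fold in 1 or both origins, 0.46 and 0.59 for Slc2a1 and 0.30 and 0.54 for Slc16a3. The third, Slc2a3, had -0.26 and 0.21. Aldoa had 0.83 in donor and 0.21 in recipient cells. For Hif1a, Pkm, Gapdh and Pfkfb3 the ratios ran from -0.18 to 0.49, and the oxygen sensor Egln3 had 0.14 and -0.20.

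The makeup of the neutrophils differed between the same libraries. Cluster 6, led by genes such as Cc2d2b and Cxcl3, held 39.4, 3.76, 20.1 and 1.58% of neutrophils, and cluster 10, led by Sh2d3c and Il15 among others, held 22.1, 9.01, 18.6 and 2.47%. Cluster 2, whose leading genes include G0s2, Ptgs2 and Slc16a3 itself, held 8.57, 23.2, 10.1 and 37.5%, and cluster 5, led by Cstdc4 and Cxcl3 among others, 7.07, 37.9, 3.65 and 17.2%. In cluster 6 Hk3 was 213, 129 and 159 CPM in the vehicle donor, RvD1 donor and vehicle recipient libraries, the 3 with enough of its cells. Within clusters Hk3 was 113, 58.3, 81.2 and 45.4 CPM in cluster 2, 126, 75.1, 123 and 63.7 in cluster 4 and 92.3, 46.6, 90.8 and 44.2 in cluster 8. It was 140.3, 88.2, 99.2 and 72.8 in cluster 5 and 147, 75.4, 163 and 50.1 in cluster 13, lower in the RvD1 library of both origins in each of these 5. In cluster 10 it was 145, 168, 132 and 118 CPM, higher with RvD1 in donor cells. When the 6 clusters with enough cells in every library were weighted equally, the Hk3 ratios were -0.58 and -0.81, and those of Hilpda -0.39 and -0.93, so that neither remained 1.5-fold lower in both origins (0 of 28, against 5.12% of all genes). For Pfkl they were 0.56 and 0.65 and for Eno1b 0.77 and 2.01. Pfkl was then short of 1.5-fold in donor cells. This weighting was chosen after seeing the data, and beyond it the part of the makeup in these ratios was not tested.

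In classical monocytes 2 of 24 genes were higher with RvD1 in both origins, Eno1b and Ndrg1, against 0.969% of all genes, and 0 lower, against 2.66%. Eno1b stood at 13.7, 29.5, 8.52 and 27.8 CPM, with log2 ratios of 1.10 (0.80 to 1.41) and 1.71 (1.01 to 2.47), and Ndrg1 at 33, 51.5, 28 and 43.1 CPM, with 0.64 (0.44 to 0.85) and 0.62 (0.20 to 1.06). Ndrg1 was short of 1.5-fold in 1 origin under 5 alternatives, with a lowest ratio of 0.46. In nonclassical monocytes 0 of 25 were higher, against 2.0%, and 2 were lower, Hk3 and Slc2a3, against 5.02%. Eno1b had too few UMIs to be counted there, though its level was more than 1.5-fold higher with RvD1 in both origins. Hk3 there had log2 ratios of -0.91 (-1.26 to -0.57) and -1.68 (-2.19 to -1.19) and Slc2a3 of -0.60 (-0.99 to -0.23) and -1.65 (-2.12 to -1.21). The donor ratio of Slc2a3 was short of 1.5-fold under 5 alternatives, among them -0.50 with the trend over intron length subtracted. The S100a8-carrying cluster 16 made up a smaller share of nonclassical monocytes in the RvD1 library of both origins, and without it Hk3 was 12.2, 10.8, 13.8 and 12.1 CPM and Slc2a3 5.27, 5.42, 5.74 and 5.66, less than 1.5-fold apart between treatments in both origins. Leaving it out was chosen after seeing the data.

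Among members with enough UMIs, lymphocytes had none 1.5-fold apart in the same direction in both origins. Eno1b had too few UMIs to be counted there. Its level, on few UMIs, was more than 1.5-fold higher with RvD1 in T, B and NK cells of both origins. In T cells the counts were 0 higher and 0 lower of 25, against 1.1% and 1.98% of all genes. For B cells they were 0 and 0 of 17, against 0.75% and 1.24%, and for NK cells 0 and 0 of 22, against 0.927% and 1.43%. Pdk1 in T cells had log2 ratios of -0.19 in donor and 0.62 in recipient cells.

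The other genes of the pathway were taken from a list of 92, covering further isoenzymes, the pentose phosphate pathway, glycogen, pyruvate entry to mitochondria, other oxygen sensors and other hypoxia targets. In neutrophils 42 of them had enough UMIs: 1 was higher with RvD1 in both origins (Fam162a) and 2 lower (Bhlhe40 and Cited2, a repressor and an inhibitor within the hypoxia response), beside 5.26% and 9.62% of all genes. In nonclassical monocytes 2 of 39 were higher (Ddit4 and Eno3) and 1 lower (Cited2), beside 2.0% and 5.02%. T cells had 0 of 55 higher and 2 lower (Gbe1 and Plod1), beside 1.1% and 1.98%. Classical monocytes (32 measured), B cells (34) and NK cells (39) had 0 in both directions. These few names were given after their values were seen.

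The fourth comparison set recipient against donor cells within each treatment, in the same 4 libraries as the third. Of the 26 genes measured in T cells, 9 were at least 1.5-fold lower in recipient than in donor cells with both treatments, against 11.7% of all genes, and 0 were higher, against 1.33%. They were Hk1, Hk2, Pfkp, Aldoa, Tpi1, Slc16a3, Egln3, Hilpda and Vegfa. Hk2 stood at 60.6, 85.6, 11.1 and 10.9 CPM, with log2 ratios of recipient over donor of -2.44 (-2.79 to -2.11) with vehicle and -2.97 (-3.24 to -2.71) with RvD1. Hilpda stood at 75.7, 113, 21.1 and 22.9 CPM, with -1.85 (-2.11 to -1.59) and -2.30 (-2.49 to -2.11). In both genes the 2 recipient libraries lay below the 2 donor libraries with a wide gap. Egln3 stood at 20.5, 15.7, 6.93 and 4.996 CPM, with -1.57 (-2.04 to -1.11) and -1.65 (-2.11 to -1.21), and Vegfa at 22.2, 11.7, 2.72 and 1.93 CPM, with -3.03 (-3.77 to -2.37) and -2.61 (-3.29 to -1.97). The ratios of the glycolytic enzymes were smaller, with -0.84 and -0.96 for Pfkp, -0.87 and -1.14 for Tpi1, -0.74 and -1.36 for Aldoa and -0.80 and -0.62 for Hk1. The levels behind these were 14.9, 25.2, 8.15 and 11.4 CPM for Tpi1 and 118, 199, 70.8 and 77.4 for Aldoa. Slc16a3 had -0.84 and -1.33, but -0.07 and 0.31 when doublets were kept. Ldha did not follow them, at 312, 289, 299 and 273 CPM, and Pdk1 had 0.11 and 0.91.

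Over all 26 genes the median log2 ratio was -0.51 with vehicle and -0.61 with RvD1, against -0.22 and -0.19 over all genes. Ribosomal protein genes took 22.7, 27.8, 34 and 35.9% of T cell UMIs, and scaling by median of ratios, by TMM or without ribosomal, mitochondrial and haemoglobin genes left 7 genes lower, without Aldoa and Hk1, against 7.63, 7.39 and 7.32% of all genes, and 0 higher, against 3.15, 3.44 and 3.53%.

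The kinds of T cell differed between donor and recipient libraries as well. Cluster 7, led by Lef1 and Satb1 among others, held 16.3, 8.99, 38.5 and 43.3% of T cells, and cluster 9, with Lef1 and Cd8b1, 19.6, 11.3, 40.9 and 33.5%. Cluster 11, with Cd8b1 and Ccl5, held 31.7, 34.5, 12.2 and 9.78%, and cluster 14, with Ctla4, Tnfrsf4 and Cd4, 11.5, 16.3, 7.07 and 10.3%. Cluster 17, led by Il23r, Cd163l1 and the gamma-delta receptor gene Trdc, held 16.7, 26.4, 1.26 and 2.93%, and cluster 25, with Xcl1 and Klrc1, 4.3, 2.52, 0 and 0.22%. Hk2 was 240.4, 284 and 113 CPM in cluster 17 of the vehicle donor, RvD1 donor and RvD1 recipient libraries, the 3 with enough of its cells. It was 36.9, 48.6, 16.8 and 17.9 CPM in cluster 14, 17.6, 4.8, 11 and 9.39 in cluster 11, 6.81, 5.01, 8.54 and 7.14 in cluster 9 and 3.4, 6.38, 6.66 and 6.36 in cluster 7. Hilpda was 220.2, 236 and 237 CPM in cluster 17 and 81.5, 129.6, 43 and 43 in cluster 14. Egln3 was 74.9, 37.5 and 43.2 CPM in cluster 17 and 30.1, 26.1, 16.8 and 11.5 in cluster 14. Cluster 17 was thus above clusters 7, 9, 11 and 14 for Hk2, and above cluster 14 for Hilpda and Egln3, in each library with enough of its cells.

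**Figure D5:**
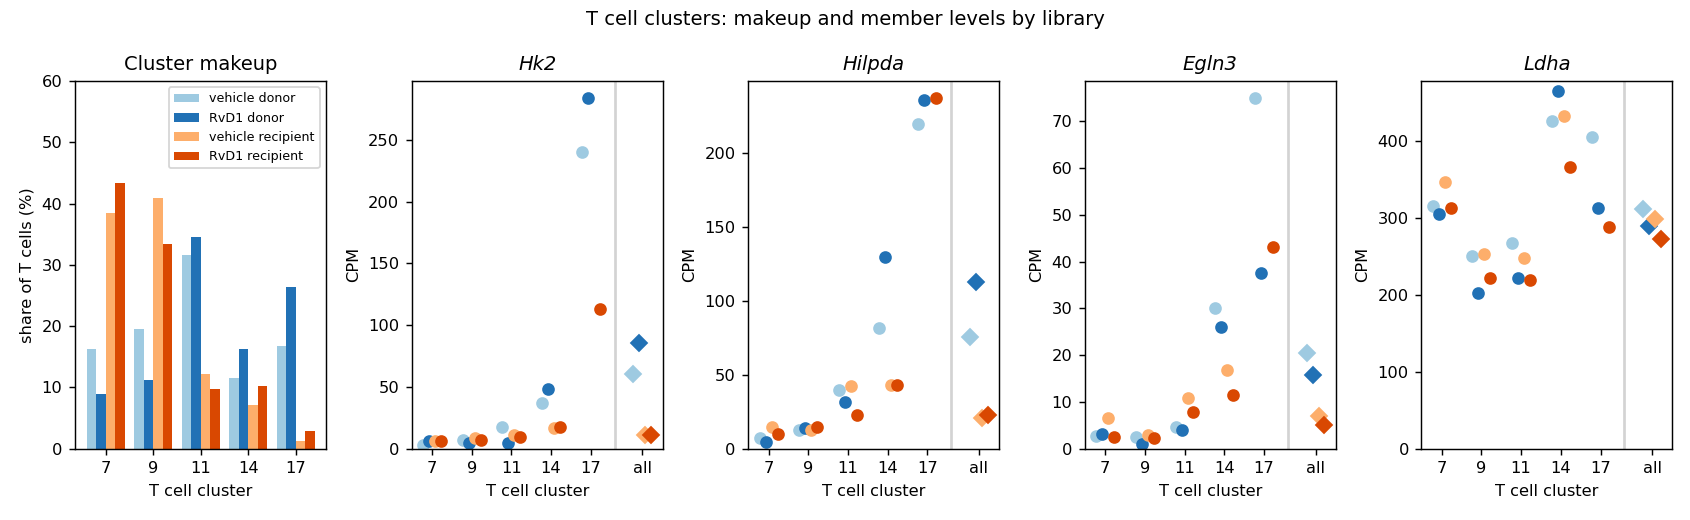
Share of T cells in 5 clusters by library (left, bars, %), and levels of Hk2, Hilpda, Egln3 and Ldha in each cluster (circles) and over all T cells (diamonds), in CPM. Cluster 17 is drawn for the 3 libraries with at least 50 of its cells, where Hk2 and Hilpda were highest, and Ldha over all T cells was near level between libraries.

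Vegfa rested on few cells. Of the 212, 83, 20 and 27 Vegfa UMIs in T cells, 189, 75, 0 and 11 came from clusters 17 and 25, and 133, 52, 0 and 8 from the 42, 21, 0 and 4 cells of cluster 25 alone. Without clusters 17 and 25, 6 genes were at least 1.5-fold lower in recipient T cells: Hilpda, Hk1, Hk2, Pfkp, Slc2a3 and Tpi1. These were 6 of 24, against 7.84% of all genes. Hk2 then had log2 ratios of -0.67 and -0.85, and Hilpda -0.67 and -1.47. With clusters 7, 9, 11 and 14 weighted equally, 1 gene of 26 was lower, against 2.34% of all genes: Hk2, with -0.59 and -0.67. Hilpda then had -0.33 and -0.98, Egln3 -0.09 and -0.50, and Vegfa -0.08 and -0.45. Both settings were chosen after seeing the data. Within cluster 17, where donor and recipient could be compared with RvD1, Hk2 had a log2 ratio of -1.32 (-1.81 to -0.87). This ratio rests on 220 donor and 53 recipient cells, and the latter is below the 100 cells asked of the other ratios.

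Among members with enough UMIs, the other classes had none 1.5-fold apart in the same direction with both treatments. In neutrophils the counts were 0 higher and 0 lower of 29, against 1.93% and 3.68% of all genes. With TMM scaling they were 1 (Slc2a3) and 0, against 3.53% and 1.81%. Slc2a3 had log2 ratios of 0.42 and 0.89 and Egln3 of -0.42 and -0.76. Hk3 had -0.39 and -0.53. Classical monocytes had 0 and 0 of 27, against 0.232% and 0.847%, and nonclassical monocytes 0 and 0 of 25, against 0.0316% and 0.301%. B cells had 0 and 0 of 20, against 0.152% and 0.774%, and NK cells 0 and 0 of 22, against 0.0% and 0.143%.

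Of the 92 other pathway genes, 56 were measured in T cells, and 10 were lower in recipient cells with both treatments and 0 higher, beside 11.7% and 1.33% of all genes. Of the 10, 7 were among the 17 measured hypoxia targets, 2 among 11 glycogen genes and 1 among 5 oxygen sensors, and 0 among the 7 of the pentose phosphate pathway. Whether these lists differ from one another was not tested. In neutrophils 45 were measured, with 3 higher in recipient cells (Adpgk, Tkt and Zfp395) and 1 lower (Bhlhe40), beside 1.93% and 3.68%. Zfp395 was at least 2-fold higher, with log2 ratios of 1.12 (0.52 to 1.77) and 1.64 (1.06 to 2.27). Classical monocytes (47 measured), nonclassical monocytes (38), B cells (36) and NK cells (40) had 0 in both directions.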

How the data were processed

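The authors deposited unnormalised UMI counts, 1 matrix of genes by barcodes for each library, made with Cell Ranger (3' v3 chemistry) against mm10, per the file headers and the submitters' processing notes, which also name Seurat 4.0.0. Matrices were used as deposited, and cell types were rebuilt here. Barcodes needed 200 genes or more and no more than 10% mitochondrial UMIs, and Scrublet doublets (1.34% to 3.65% of cells) were removed. All libraries were clustered together with scanpy 1.11.5 (30 components, 15 neighbours, Leiden resolution 1), and clusters were named from marker lists by a rule settled with the clusters in view.

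Class sums of UMIs in each library were divided by the class total. Levels are given for classes with at least 50 cells, and ratios for at least 100 cells in each library and 100 UMIs over both. The Hk2 ratio within T cell cluster 17 is an exception to the minimum of cells. A zero was set to 3 counts. Ratio and share intervals are exact Clopper-Pearson and level intervals exact Poisson, at 95%. A gene counts as apart at 1.5-fold in both comparisons, or at 2-fold in all 4 libraries between classes. The script was tested on simulated counts. TMM factors came from edgeR 4.0.16.

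All 31 members are described by role, with values in every library for isoenzyme families and for genes apart by these rules. Other pathway genes are counted, with values at 2-fold or more in neutrophils or both monocyte classes. The members and lists were chosen with earlier results of these data known. Promoters are from RefSeq. Alternatives covered scaling, UMI minimum, mitochondrial limit, doublets, weighting, clustering, thinning and left-out libraries.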

Additional observations from a re-analysis of the deposited data

Results flagged for a closer look

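Some members lay at least 1.25-fold apart in opposite directions in the 2 comparisons of the same contrast, with both 95% counting intervals clear of 0. The difference between the comparisons was not tested, since each rests on 1 library per group. For RvD1 over vehicle, Vegfa in neutrophils had a log2 ratio of -0.64 in donor and 0.33 in recipient cells, Gpi1 in classical monocytes 0.62 and -0.33, and Pfkfb3 in B cells -0.55 and 0.51. For recipient over donor cells, classical monocytes had 0.51 with vehicle and -0.43 with RvD1 for Gpi1, 0.51 and -0.86 for Hk2, and -0.71 and 0.41 for Vegfa. The classical monocytes of the recipient libraries numbered 169 and 281.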

How the results depend on the processing

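Of the recomputed counts and isoenzyme shares, 200 stayed within the spread between libraries or within 1.5 times the main value, and 9 moved further. In neutrophils, a minimum of 200 UMIs left 0 members higher with RvD1 (2 in the main analysis). Pfkl and Eno1b had too few UMIs for it, and 26 members were measured in place of 28. Equal weighting of clusters left 0 lower with RvD1 (2). For recipient over donor cells, TMM scaling made 1 member, Slc2a3, higher (0), and equal weighting made 1, P4ha1, lower (0). In T cells equal weighting left 1 of 9 members lower. Keeping doublets moved the median Hk1 share in NK cells from 75.1% to 69.4%. Leaving out cluster 16 moved median shares in nonclassical monocytes from 40.1% to 61.8% for Hk2, from 34.1% to 16% for Hk3 and from 40.5% to 20.1% for Egln3. For recipient over donor T cells, Slc16a3 turned to 0.31 with RvD1 when doublets were kept, and under equal weighting with vehicle Slc16a3 turned to 0.32 and Aldoa to 0.049; the cause was not tested. Among values of single genes, 600 kept their direction and side of the threshold, 3 reversed, 36 fell below the threshold and 7 moved otherwise. Leaving out any 1 library kept the recomputed counts of classical monocytes against neutrophils and of neutrophils against lymphocytes within 1.5 times. With the trend over intron length subtracted, neutrophils had 3 members higher (Hk1 added) and 2 lower with RvD1, and the Hk3 ratios were -1.03 and -1.18, with no call of the main analysis lost in neutrophils. That subtraction was run for RvD1 against vehicle alone. Depth limits Pfkm, Pdk1, Egln3 and Eno1b, with few UMIs in several classes, Pfkl in neutrophils and Hk3 in lymphocytes. No replicate block was fitted, as each group has 1 library and no test was run.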
